A study of Mus musculus with 18 samples.

Results

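The mitosis and spindle genes described here are 55 genes, taken by symbol from the 55450 gene rows of the count table. They were listed for their roles in entering, running and leaving mitosis, with earlier results of these data known. Each symbol matched 1 Ensembl mouse gene, and all 55 passed the filter on low counts, which kept 17912 genes for testing. The cells were C2C12, a mouse myoblast line that withdraws from the cell cycle and fuses into multinucleated myotubes when serum is lowered. The control (px) was a population sorted for EGFP after it had received the pX458 vector alone, which carries Cas9. The Dlk1-Dio3 overexpressor (line 2-4) and the Dlk1-Dio3 knockout (line 2-7) received guide pairs that delete in the promoter region of Meg3, a noncoding RNA gene of that cluster, and were grown up after dilution to single cells. Each line was measured as myoblasts in growth medium and as myotubes after differentiation to day 3. Each group had 3 libraries of polyadenylated RNA (A, B and C), or 18 in all.

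Each genotype is therefore 1 clone, set against a population, and clone and genotype cannot be told apart. Nothing in the labels says that replicates came from separate derivations, so p-values measure the spread between libraries of the same line. In bulk RNA, fewer dividing cells and less mitotic RNA per cell cannot be told apart.

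Mitosis is driven by the kinase CDK1 bound to cyclins A and B, and ends when the anaphase-promoting complex marks cyclin B and securin for destruction. Many genes of this program are repressed in resting cells by the DREAM complex and switched on in G2 by the factors MYBL2 and FOXM1, which act with the MuvB core. Leaving the cell cycle for good is a hallmark of muscle differentiation, so these transcripts are normally scarce in myotubes.

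Library totals ran from 41544358 to 79140702 counts, and levels are given as CPM, the usual per-million count scaled by the TMM factor of the library. Counts of Meg3 were 5222 to 7763 in the 6 libraries of the overexpressor but 0 throughout the control and the knockout, so it did not separate the knockout from the control, and the directions given for the knockout rest on its label. The summed level of 13 muscle differentiation markers was 336 to 515 CPM in control myoblasts, 585 to 954 in overexpressor myoblasts and 12116 to 15502 in knockout myoblasts. In myotubes it was 19790 to 20438 CPM in the control, 34477 to 37739 in the overexpressor and 45681 to 55497 in the knockout. A set of 8 markers of undifferentiated or reserve muscle cells summed to between 447 and 609 CPM in every group. The similar sums hid changes of single markers in both directions. Against control myotubes, 5 were called higher and 3 lower in the overexpressor (26.2% and 30.9% of all genes), with log2 fold changes of -3.30 to 2.24. In the knockout 4 were higher and 2 lower (31% and 37%), at -5.43 to 3.11. Fibroblast markers (6 genes) summed to 12033 to 13381 CPM in control myotubes and to 2295 to 3618 CPM in the other groups, with Thy1 and Lum at 3 counts or fewer in control myoblasts and in both overexpressor groups. Adipocyte, endothelial and leukocyte markers summed to at most 2.22 CPM in any library, with Adgre1 and Cfd at 1 count or fewer throughout. Genes whose transcripts hold under 45% G and C had a median log2 deviation from their mean over all libraries of -0.26, -0.56 and -0.67 in knockout myotubes A, B and C and of 0.42 in overexpressor myotube C, against -0.17 and -0.10 in overexpressor myotubes A and B.

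Promoter sequence is shown for 5 members because the genes of this program are known to share CCAAT boxes, bound by NF-Y, and the cell cycle homology region TTTGAA or TTCGAA, bound by MuvB complexes. RefSeq's promoter table for GRCm38.p6 held a start site for 46 of the 55 members. Ccnb1 encodes cyclin B1, Cdc20 an activator of the anaphase-promoting complex, Plk1 a mitotic kinase and Cdk1 the central mitotic kinase. Bub3, a spindle checkpoint protein, is shown as the member that changed least in differentiation. Each line is the 250 bases before the RefSeq start, 5′ to 3′ on the gene's strand with both motifs in capitals wherever they occur on either strand. The windows of Bub3, Ccnb1, Cdk1 and Cdc20 reach into the gene as bounded in GENCODE vM21, which starts Bub3 at 131560222. All marked motifs of Bub3 lie within those bounds. A CCAAT box on the opposite strand reads as ATTGG, and an opposite TTTGAA reads as TTCAAA.
Ccnb1, chr13:100786487-100786736, minus strand: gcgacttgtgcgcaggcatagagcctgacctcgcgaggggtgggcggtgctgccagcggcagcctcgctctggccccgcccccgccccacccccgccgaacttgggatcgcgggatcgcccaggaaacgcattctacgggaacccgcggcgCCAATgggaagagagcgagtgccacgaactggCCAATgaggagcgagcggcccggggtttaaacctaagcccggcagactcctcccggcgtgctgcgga
Cdc20, chr4:118437344-118437593, minus strand: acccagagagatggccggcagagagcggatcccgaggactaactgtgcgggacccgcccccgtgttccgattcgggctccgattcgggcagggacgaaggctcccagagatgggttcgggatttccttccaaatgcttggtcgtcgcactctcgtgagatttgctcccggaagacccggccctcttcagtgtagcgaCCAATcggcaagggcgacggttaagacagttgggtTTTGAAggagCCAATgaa
Plk1, chr7:122159185-122159434, plus strand: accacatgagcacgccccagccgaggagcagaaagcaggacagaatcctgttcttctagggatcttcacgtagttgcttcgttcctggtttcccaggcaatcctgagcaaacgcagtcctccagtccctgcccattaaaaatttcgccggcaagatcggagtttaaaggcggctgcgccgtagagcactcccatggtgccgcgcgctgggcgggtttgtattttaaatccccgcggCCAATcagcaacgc
Cdk1, chr10:69352913-69353162, minus strand: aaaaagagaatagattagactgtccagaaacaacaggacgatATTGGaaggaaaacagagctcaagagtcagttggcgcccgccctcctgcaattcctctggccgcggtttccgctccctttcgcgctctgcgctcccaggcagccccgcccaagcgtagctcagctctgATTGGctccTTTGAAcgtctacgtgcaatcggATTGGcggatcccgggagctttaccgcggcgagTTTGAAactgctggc
Bub3, chr7:131560120-131560369, plus strand: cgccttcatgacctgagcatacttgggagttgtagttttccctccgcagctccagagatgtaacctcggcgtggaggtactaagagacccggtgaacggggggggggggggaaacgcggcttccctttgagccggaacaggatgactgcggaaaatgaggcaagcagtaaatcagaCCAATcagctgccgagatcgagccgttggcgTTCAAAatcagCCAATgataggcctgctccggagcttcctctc

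In these windows Ccnb1 held CCAAT at 2 places and Plk1 at 1 place, and neither held TTTGAA or TTCGAA. Cdc20, Cdk1 and Bub3 held both kinds of motif. Over the 46 members, CCAAT was found in 34 (73.9%), against 34.5% of the 27025 genes in the table, with both strands searched. TTTGAA or TTCGAA was found in 17 (37.0%), against 17.4% of genes. When the first 50 bases after the start were added, TTTGAA or TTCGAA was found in 36 members (78.3%), against 19.4% of genes, and both motifs together in 31 (67.4%), against 7.7%. No 2 of these motifs overlapped in the sequences shown. A match is a description of the letters and not of a bound site.

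All 55 genes fell on differentiation in each of the 3 lines, with a smaller median fall in both mutant lines than in the control. The summed level of the 55 genes in control cells was 6518, 6374 and 6755 CPM in the 3 myoblast libraries and 655, 801 and 787 CPM in the 3 myotube libraries. The overexpressor sums were 6808, 7484 and 6589 CPM in myoblasts and 1114, 1242 and 1242 CPM in myotubes. Those of the knockout were 4950, 4645 and 4988 CPM in myoblasts and 1194, 1178 and 1112 CPM in myotubes. Every mutant myotube library thus held a higher sum than every control myotube library, and the knockout reached this from the lowest myoblast sums.

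**Figure D1:**
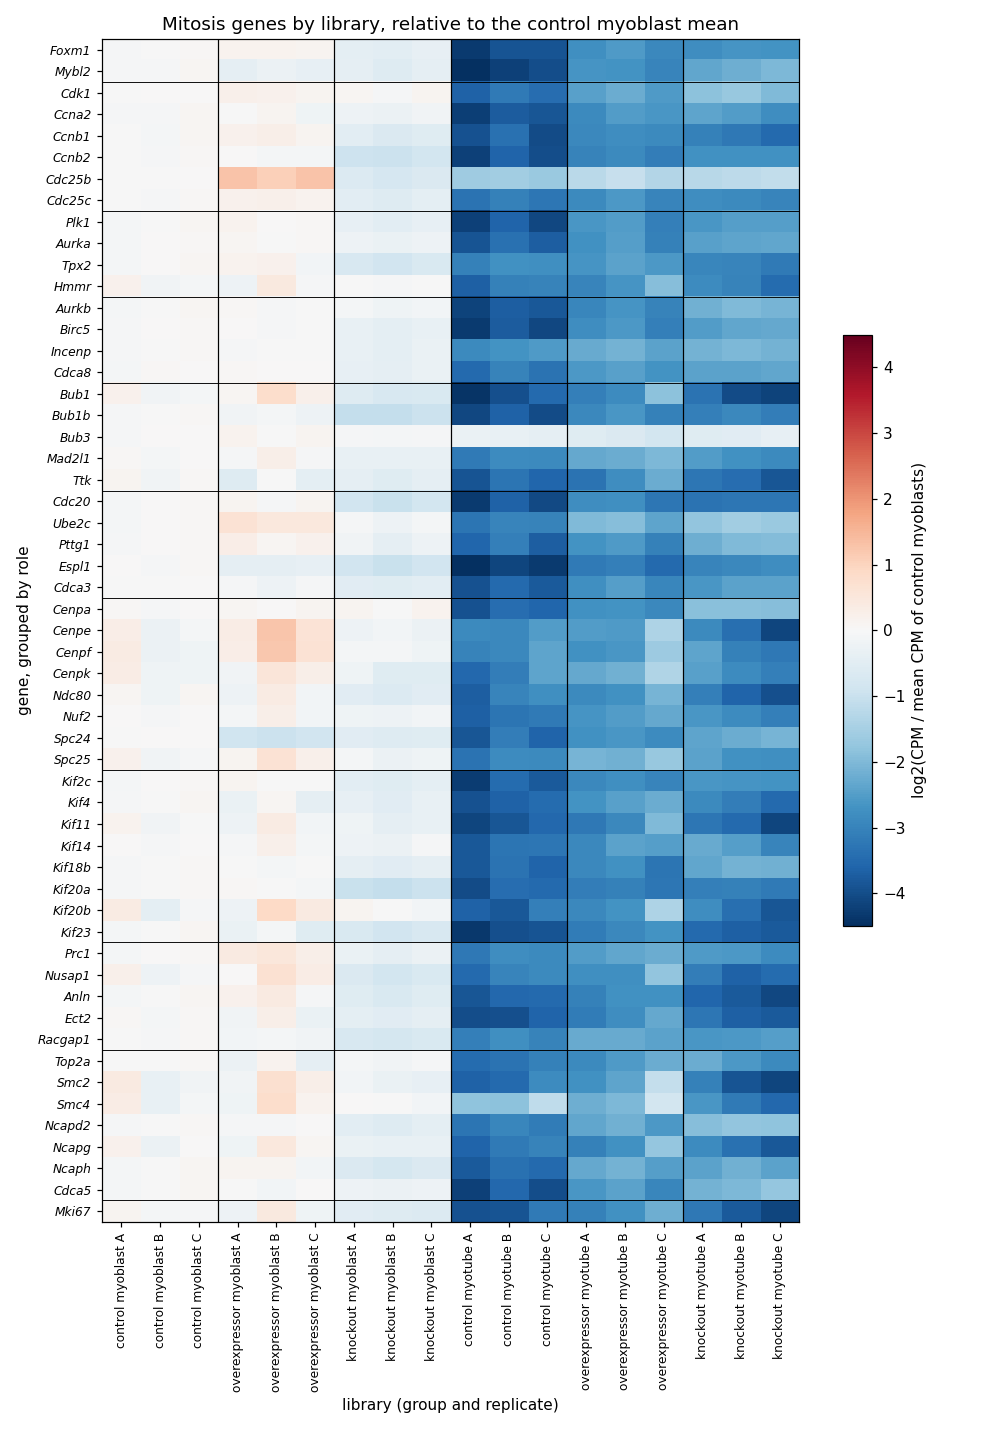
Level of each of the 55 genes (rows, grouped by role) in each of the 18 libraries (columns), as log2 of CPM over the mean CPM of control myoblasts. The control myotube columns are the darkest blue for most rows, Bub3 is pale throughout, and overexpressor myotube C and the knockout myotube libraries depart from their neighbours in the same low-GC genes, among them Smc2, Smc4, Cenpe and Kif20b.

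In control cells the median log2 fold change of the 55 genes between myotubes and myoblasts was -3.49, against 0.07 for all genes tested. All 55 were lower, with 28.8% of all genes called lower and 33.9% called higher (edgeR's quasi-likelihood test with Benjamini-Hochberg adjustment over all genes, threshold 0.05, as for every adjusted p below). In all 55 genes no myotube library reached the level of any myoblast library, which held in this direction for 32.7% of all genes. The largest falls were those of Espl1, the separase that cuts cohesin (log2 fold change -4.33, SE 0.12, adjusted p = 1.52e-15), of Mybl2 (-4.22, SE 0.14, adjusted p = 1.18e-14) and of Kif23, a kinesin of the central spindle (-4.05, SE 0.15, adjusted p = 1.01e-13). The smallest were those of Bub3 (-0.35, SE 0.07, adjusted p = 0.000416), of Smc4, a condensin subunit (-1.56, SE 0.36, adjusted p = 0.00157), and of Cdc25b, a phosphatase that activates CDK1 (-1.60, SE 0.07, adjusted p = 1.45e-12).

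In the overexpressor the median was -2.61, against -0.02 for all genes, and all 55 were lower, with 33% of all genes called lower and 29.8% called higher. Kif20a, a kinesin needed for cytokinesis, fell most (-3.11, SE 0.12, adjusted p = 8.17e-14), followed by Ccnb1 (-3.04, SE 0.13, adjusted p = 7.27e-13) and Anln, the anillin scaffold of the cleavage furrow (-3.01, SE 0.14, adjusted p = 6.43e-12). Bub3 fell least (-0.74, SE 0.07, adjusted p = 6.5e-08), before Spc24, a subunit of the NDC80 complex (-1.81, SE 0.12, adjusted p = 2.9e-10), and Smc4 (-1.87, SE 0.36, adjusted p = 0.000381). In the knockout the median was -2.33, against -0.08 for all genes. All 55 were again lower, with 35.6% of all genes called lower and 29.8% called higher. Here the largest falls were those of Smc2, the partner of Smc4 in condensin (-3.34, SE 0.44, adjusted p = 1.01e-05), Kif20b (-3.28, SE 0.42, adjusted p = 8.32e-06) and Kif11, the motor that pushes spindle poles apart (-3.26, SE 0.31, adjusted p = 3e-07), whose longest transcripts all hold under 45% G and C. Its smallest falls were in Bub3 (-0.39, SE 0.07, adjusted p = 0.000157, a call lost with the GC and length offset at -0.13, adjusted p = 0.279), Cdc25b (-0.51, SE 0.07, adjusted p = 7.77e-06) and Ncapd2, a condensin subunit (-1.35, SE 0.09, adjusted p = 8.52e-10). The myotube and myoblast libraries did not overlap in any of the 55 genes in either mutant line, which held in this direction for 32.6% of all genes in the overexpressor and 39.4% in the knockout.

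Expressed as the share of the myoblast mean that was left in myotubes, the median gene kept 8.93% in control cells, 16.4% in overexpressor cells and 19.9% in knockout cells. The share depends on the myoblast level too, which was already lower than in the control for 28 of the 55 genes in the knockout (median log2 fold change -0.40, with 26.6% of all genes called lower). The knockout's larger share is thus not a higher myotube level than the overexpressor's, whose summed level was similar. In the control 33 of the 55 genes kept under 10%, in the overexpressor 0, and in the knockout 1, Smc2 at 9.81%. The lowest shares were those of Espl1 in the control, at 4.97%, and of Kif20a in the overexpressor, at 11.5%. Bub3 kept the highest share in each line, at 78.3%, 59.7% and 76.1% in control, overexpressor and knockout. Next came Smc4 in the control at 33.8%, Spc24 in the overexpressor at 28.5% and Cdc25b in the knockout at 70.2%.

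**Figure D2:**
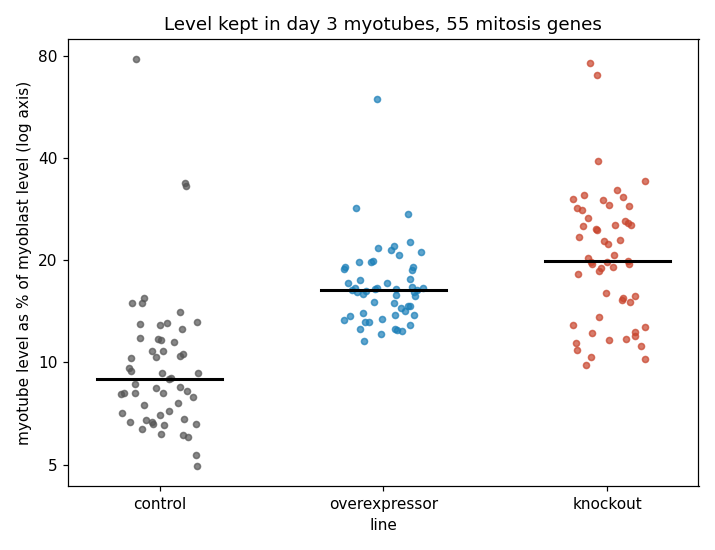
Mean myotube level as a percentage of the mean myoblast level (log axis) for each of the 55 genes (points) in each line, with the median as a black line. The medians of control, overexpressor and knockout stand at 8.93%, 16.4% and 19.9%, and the point near the top of each column is Bub3. The myoblast level, the base of each percentage, was lowest in sum in the knockout.

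Overexpressor myotubes held more of this program than control myotubes, with members higher in every role group. The median log2 fold change of the 55 genes was 0.89, against -0.04 for all genes tested. Of the 55, 50 were higher and 1 was lower, with 26.2% of all genes called higher and 30.9% called lower. The libraries of both groups did not overlap in 48 genes that were higher, against 27.8% of all genes, and in 1 that was lower, against 32.1%. Without overexpressor myotube C, the library rich in low-GC transcripts, 46 were higher and 0 lower. The shares of all genes above belong to the fit of all 18 libraries, and those of the fit without this library are not given here. Knockout myotubes were higher in 35 of the 55 and lower in 1, with 31% of all genes called higher and 37% called lower. Their median was 0.53, against -0.07 for all genes, and the libraries did not overlap in 33 genes that were higher (32.9% of all genes) and 1 that was lower (38.1%). The counts by role that follow are to be read against the shares called higher, 26.2% and 31% of all genes. Both comparisons use the same 3 control myotube libraries, in which the fibroblast markers were high, and the part of those markers in the results was not tested.

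The mitotic transcription factors were higher in both mutants. Mybl2 stood at 1.31, 1.65 and 1.91 CPM in control myotubes, 4.87, 4.77 and 3.83 in the overexpressor and 6.01, 6.65 and 7.42 in the knockout. The 3 groups did not overlap, and the knockout was the highest. It was 2.76-fold higher than control in the overexpressor (log2 fold change 1.47, SE 0.13, adjusted p = 2.46e-08) and 4.11-fold higher in the knockout (2.04, SE 0.13, adjusted p = 2.34e-10), the largest difference of the 55 in both comparisons. Foxm1 stood at 9.89, 13.02 and 13.02 CPM in the control, 29.0, 33.2 and 25.7 in the overexpressor and 28.3, 30.5 and 30.1 in the knockout. Both mutants lay above the control and overlapped each other (1.29, SE 0.10, adjusted p = 2e-09, and 1.31, SE 0.10, adjusted p = 1.53e-09).

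CDK1, its cyclins and its phosphatases were higher in all 6 members in both mutants. Cdk1 was at 14.1, 19.6 and 16.3 CPM in control myotubes, 32.1, 37.8 and 30.3 in the overexpressor and 48.7, 53.9 and 45.1 in the knockout. These are 3 separate ranges, 2.01-fold above control in the overexpressor (log2 fold change 1.01, SE 0.10, adjusted p = 1.64e-07) and 2.96-fold above it in the knockout (1.57, SE 0.11, adjusted p = 4.08e-10). Ccna2, the cyclin of S phase and mitotic entry, was at 13.6, 19.5 and 17.97 CPM in the control, 35.2, 45.6 and 42.1 in the overexpressor and 50.1, 44.7 and 37.2 in the knockout. Both mutants lay above the control (1.27, SE 0.13, adjusted p = 2.17e-07, and 1.37, SE 0.13, adjusted p = 7.02e-08). Ccnb1 was at 5.08, 7.39 and 4.71 CPM in the control, 10.1, 10.96 and 10.6 in the overexpressor and 9.17, 8.22 and 6.73 in the knockout. The knockout overlapped the control in 1 library of each, and its difference was the smaller (0.50, SE 0.13, adjusted p = 0.00326, against 0.89, SE 0.13, adjusted p = 1.43e-05). The smallest differences of the group in the knockout were those of Cdc25b and Cdc25c, at 0.42 (adjusted p = 5.93e-05) and 0.33 (adjusted p = 0.00996).

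Among the mitotic kinases and their partners, Plk1 was at 8.75, 13.2 and 9.51 CPM in control myotubes, 26.2, 28.3 and 19.0 in the overexpressor and 26.1, 29.0 and 28.7 in the knockout. Both mutants lay above every control library (1.23, SE 0.14, adjusted p = 9.28e-07, and 1.42, SE 0.14, adjusted p = 1.44e-07). Aurka, the kinase of the spindle poles, was at 6.54, 9.54 and 7.54 CPM in the control, 14.9, 17.5 and 11.97 in the overexpressor and 17.8, 18.8 and 19.3 in the knockout, again without overlap with the control (0.91, SE 0.12, adjusted p = 4.55e-06, and 1.24, SE 0.12, adjusted p = 8.19e-08). Its activator Tpx2 was among the least raised in the overexpressor (0.29, SE 0.10, adjusted p = 0.0208) and had a log2 fold change of -0.20 in the knockout (adjusted p = 0.0854). Hmmr, a spindle-associated partner, differed by 0.77 in the overexpressor (adjusted p = 0.0219) and by 0.13 in the knockout (adjusted p = 0.691).

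All 4 subunits of the chromosomal passenger complex, which corrects faulty chromosome attachments, were higher in both mutants. Its kinase Aurkb stood at 5.25, 7.23 and 6.62 CPM in control myotubes, 12.2, 14.9 and 11.5 in the overexpressor and 21.0, 23.5 and 22.1 in the knockout. The 3 groups did not overlap, at 2.03-fold (1.02, SE 0.11, adjusted p = 1.86e-07) and 3.49-fold (1.80, SE 0.11, adjusted p = 7.6e-11) above control. Birc5, the survivin subunit, stood at 6.12, 9.20 and 7.16 CPM in the control, 17.8, 20.5 and 14.7 in the overexpressor and 21.4, 24.04 and 24.6 in the knockout, with every knockout library above every overexpressor library (1.24, SE 0.12, adjusted p = 9.04e-08, and 1.64, SE 0.12, adjusted p = 1.92e-09, both against control).

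The spindle checkpoint holds anaphase back until chromosomes are attached. In the overexpressor 4 of its 5 members (80%) were higher, against 26.2% of all genes. In the knockout 1 was (20%, under the 31% of all genes), Bub1b (0.89, SE 0.11, adjusted p = 1.05e-06). Bub1 was at 2.14, 2.95 and 3.99 CPM in control myotubes, 5.36, 6.37 and 12.5 in the overexpressor and 4.49, 2.81 and 2.55 in the knockout. The overexpressor lay above the control (1.41, SE 0.33, adjusted p = 0.00178), with library C at the top, while the knockout overlapped the control (0.12, SE 0.34, adjusted p = 0.767). Mad2l1 was at 7.62, 9.75 and 9.51 CPM in the control, 14.0, 14.7 and 16.97 in the overexpressor (0.77, SE 0.11, adjusted p = 1.24e-05) and 12.1, 10.3 and 9.45 in the knockout (0.25, SE 0.11, adjusted p = 0.0617). In the knockout Mad2l1 passed with DESeq2 size factors (0.38, adjusted p = 0.00423), with library totals (0.30, adjusted p = 0.0397), in DESeq2's Wald test (0.38, adjusted p = 0.0028), with an offset for GC content and length (1.10, adjusted p = 4.03e-07) and on leaving out knockout myotube C, overexpressor myotube C, control myotube B or overexpressor myoblast B, and Bub1 passed with the offset (0.78, adjusted p = 0.00173), so the count of 1 depends on the setting. Bub3 went the other way, at 106, 103 and 97.6 CPM in the control, 90.2, 83.8 and 73.4 in the overexpressor and 88.8, 92.6 and 102 in the knockout. It was lower in the overexpressor (-0.31, SE 0.07, adjusted p = 0.0016) and differed by -0.11 in the knockout (adjusted p = 0.185). The overexpressor's call for Bub3 was lost without its myotube library C (-0.13, adjusted p = 0.168). It was also lost with DESeq2 size factors, library totals, only the groups compared, DESeq2's Wald test and the GC and length offset, so it depends on the scaling.

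The group of anaphase-promoting complex partners, securin and separase was higher in all 5 members in both mutants. Cdc20 stood at 11.04, 17.4 and 13.02 CPM in control myotubes, 31.1, 32.0 and 22.9 in the overexpressor and 21.7, 22.8 and 23.1 in the knockout. Both lay above the control (1.05, SE 0.14, adjusted p = 4.18e-06, and 0.71, SE 0.14, adjusted p = 0.000236). Ube2c, the ubiquitin-conjugating enzyme of the complex, stood at 14.3, 17.8 and 17.6 CPM in the control, 36.0, 37.1 and 27.3 in the overexpressor and 41.5, 47.3 and 44.0 in the knockout, where it was 2.67-fold above control (1.42, SE 0.11, adjusted p = 1.95e-09). Espl1 was 1.09 higher on the log2 scale in the overexpressor (adjusted p = 8.06e-08) and 1.45 higher in the knockout (adjusted p = 1.55e-09), and securin, Pttg1, 0.68 (adjusted p = 0.000593) and 1.38 (adjusted p = 2.16e-07).

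At the centromere and kinetochore, 5 of 8 members (62.5%) were higher in the overexpressor, against 26.2% of all genes. In the knockout 3 of 8 were (37.5%), near the 31% of all genes. Cenpa, the histone that marks centromeres, was at 8.28, 11.7 and 10.5 CPM in control myotubes, 19.1, 19.5 and 16.9 in the overexpressor and 34.4, 34.2 and 33.2 in the knockout. The 3 ranges were separate (0.87, SE 0.09, adjusted p = 2.69e-07, and 1.74, SE 0.09, adjusted p = 2.04e-11). Ndc80, the microtubule-binding subunit of the outer kinetochore, was at 2.94, 4.94 and 5.68 CPM in the control, 5.27, 5.87 and 9.14 in the overexpressor and 4.59, 3.15 and 2.51 in the knockout. Its groups overlapped, and it passed in neither mutant (0.58, SE 0.27, adjusted p = 0.0756, and -0.40, SE 0.28, adjusted p = 0.217). The motor Cenpe and the corona protein Cenpf also passed in neither, with log2 fold changes of 0.71 (adjusted p = 0.0972) and 0.51 (adjusted p = 0.194) in the overexpressor and of -0.62 (adjusted p = 0.14) and -0.09 (adjusted p = 0.826) in the knockout. Spc25, another NDC80 complex subunit, differed by 0.36 in the knockout (adjusted p = 0.0795).

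**Figure D3:**
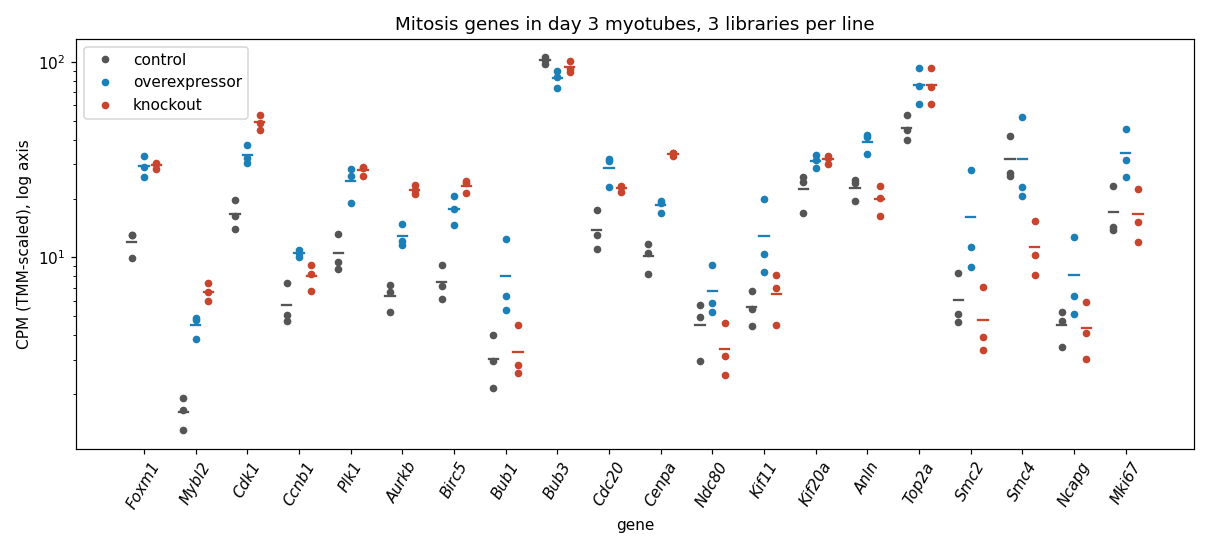
CPM (log axis) of 20 of the genes in the 3 myotube libraries of each line (points), with the mean as a bar. Mybl2, Cdk1, Aurkb, Birc5 and Cenpa form 3 separate steps from control to knockout. Bub3 is the one gene shown with all 3 overexpressor points below the control. Smc2, Smc4, Bub1, Kif11, Ncapg and Mki67 have a wide overexpressor spread with library C at the top.

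The kinesin motors were higher in all 8 members in the overexpressor and in 6 of 8 in the knockout, against 26.2% and 31% of all genes. Kif11 was at 4.47, 5.47 and 6.75 CPM in control myotubes, 8.46, 10.4 and 19.8 in the overexpressor (1.21, SE 0.30, adjusted p = 0.00269) and 8.14, 6.96 and 4.496 in the knockout (0.24, SE 0.30, adjusted p = 0.503). Overexpressor library C stood far above the other libraries, and the knockout overlapped the control. Kif20a was at 16.9, 25.9 and 24.2 CPM in the control, 31.7, 33.3 and 28.8 in the overexpressor (0.49, SE 0.11, adjusted p = 0.000918) and 32.5, 33.2 and 30.2 in the knockout (0.52, SE 0.11, adjusted p = 0.000446). For this motor both mutants lay just above the control, in overlapping ranges. In the knockout Kif18b, which shortens astral microtubules, was the most raised motor (1.35, SE 0.12, adjusted p = 2.78e-08).

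Of the 5 genes of the midzone and cytokinesis, all were higher in the overexpressor and 2 in the knockout, Racgap1 (0.39, SE 0.07, adjusted p = 0.000171) and Prc1. The knockout's share, 40%, was near the 31% of all genes, while 26.2% of all genes were higher in the overexpressor. Prc1, which bundles midzone microtubules, was at 18.5, 24.7 and 23.6 CPM in control myotubes, 30.1, 33.96 and 36.3 in the overexpressor (0.59, SE 0.11, adjusted p = 0.000125) and 29.0, 28.3 and 23.8 in the knockout (0.28, SE 0.11, adjusted p = 0.0277). The knockout overlapped the control, and its call was lost without control myotube A (0.16, adjusted p = 0.179), knockout myotube A (0.23, adjusted p = 0.0951) or knockout myotube B (0.25, adjusted p = 0.0878). Anln was at 19.4, 24.2 and 24.8 CPM in the control, 34.04, 42.2 and 41.5 in the overexpressor (0.78, SE 0.13, adjusted p = 8.71e-05) and 23.2, 20.2 and 16.3 in the knockout (-0.19, SE 0.14, adjusted p = 0.219).

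Chromosome structure genes gave the most uneven picture, with 6 of 7 higher in the overexpressor and 4 higher and 1 lower in the knockout. Of all genes 26.2% were higher in the overexpressor, and 31% were higher and 37% lower in the knockout. Top2a, the topoisomerase that untangles sister chromatids, was at 39.9, 44.8 and 53.8 CPM in control myotubes, 60.8, 75.8 and 93.5 in the overexpressor and 93.7, 74.6 and 61.2 in the knockout, both above the control (0.73 in each, SE 0.18, adjusted p = 0.00252 and 0.00218). Cdca5, the sororin that stabilises cohesin, was among the 3 most raised genes of the knockout, at 1.88, 2.95 and 2.16 CPM in the control and 7.85, 8.52 and 10.2 in the knockout (1.93, SE 0.15, adjusted p = 3.5e-09). Condensin differed by subunit: Ncapd2 was higher by 1.29 in the knockout (adjusted p = 1.27e-09), whereas Smc4 was lower (-1.49, SE 0.37, adjusted p = 0.00255). The subunits also differ in the GC content of their longest transcripts. It is 54.0% in Ncapd2, 48.3% in Ncaph, 40.2% in Smc4, 39.7% in Smc2 and 34.8% in Ncapg. Values of Smc4, Smc2 and Ncapg with an offset for GC content and length are given below. Smc4 was at 27.0, 26.2 and 42.1 CPM in the control, 20.7, 22.9 and 52.5 in the overexpressor and 15.4, 10.3 and 8.13 in the knockout, so that the knockout lay below every control library and the overexpressor on both sides of them (0.01, SE 0.36, adjusted p = 0.982). Its partner Smc2 was at 4.68, 5.13 and 8.30 CPM in the control, 8.93, 11.3 and 27.96 in the overexpressor (1.41, SE 0.41, adjusted p = 0.00921) and 7.07, 3.93 and 3.37 in the knockout (-0.33, SE 0.43, adjusted p = 0.509). Ncapg was at 3.47, 4.74 and 5.27 CPM in the control, 5.15, 6.38 and 12.8 in the overexpressor (0.85, SE 0.32, adjusted p = 0.032) and 5.94, 4.12 and 3.03 in the knockout (-0.03, SE 0.33, adjusted p = 0.933). The overexpressor's call for Ncapg was lost without its library C (0.47, adjusted p = 0.124).

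Mki67, the Ki-67 protein used to score dividing cells, was at 13.8, 14.3 and 23.1 CPM in control myotubes, 25.8, 31.7 and 45.4 in the overexpressor and 22.5, 15.2 and 12.02 in the knockout. It was higher in the overexpressor (1.00, SE 0.27, adjusted p = 0.00498) and overlapped the control in the knockout (-0.04, SE 0.27, adjusted p = 0.9).

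Compared directly, 25 of the 55 genes were higher in overexpressor than in knockout myotubes and 15 were lower, with 30.6% and 29.1% of all genes called. The median was 0.08, against 0.02 for all genes. These differences followed the GC content of the longest transcript, with a Spearman correlation of -0.76 over the 55 genes against -0.39 over all genes. The median was 0.83 for the 21 members under 45% GC, -0.04 for the 17 at 45 to 50% and -0.33 for the 17 over 50%. Medians of all genes in these ranges were 0.58, 0.07 and -0.22. The counts with an offset for GC content and length are given below. Smc2 (1.74, SE 0.42, adjusted p = 0.00261), Smc4 (1.502, SE 0.37, adjusted p = 0.00303) and Cenpe (1.33, SE 0.35, adjusted p = 0.00513) stood highest in the overexpressor. Cenpa (-0.87, SE 0.09, adjusted p = 3.1e-07), Aurkb (-0.79, SE 0.10, adjusted p = 4.32e-06) and Kif18b (-0.73, SE 0.12, adjusted p = 6.18e-05) stood highest in the knockout. Pttg1, Cdca5, Mybl2, Cdk1, Ncapd2, Spc24, Ube2c, Birc5, Espl1, Aurka, Ccnb2 and Bub3 were the other members higher in the knockout, by 0.70 down to 0.19 on the log2 scale. Without knockout myotube C the number of genes higher in the overexpressor was 15, and the part of that library's low-GC deficit was not tested in this fit. The share of all genes called in this fit is not given here.

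The split between members in the knockout ran along the base composition of their transcripts. Over the 55 genes the log2 fold change of knockout against control myotubes had a Spearman correlation of 0.73 with the GC content of the longest transcript and of -0.48 with exon length, against 0.27 and -0.18 over 17890 genes. The points share their libraries, and GC content and length are related to each other, so these values are descriptions. For the overexpressor the correlation with GC content was 0.09 over the 55 genes. Of the 21 members under 45% GC, 5 were higher and 1 was lower in the knockout (13.7% and 52.7% of all genes of that GC content), with a median of 0.16 against -0.57 for all such genes. Of the 17 members at 45 to 50%, 13 were higher and 0 lower (29.4% and 39.7%), with a median of 0.88 against -0.12. All 17 members over 50% were higher (40.9% of such genes, with 27.4% lower), with a median of 1.29 against 0.18. In the overexpressor, 17 of 21 were higher and 0 lower under 45% (21.7% and 22.1% of such genes), 16 of 17 were higher and Bub3 lower at 45 to 50% (27.4% and 32.1%), and 17 of 17 were higher over 50% (27.8%, with 34.9% lower). Within each of the 3 ranges the members' median lay above that of all genes in both mutants.

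**Figure D4:**
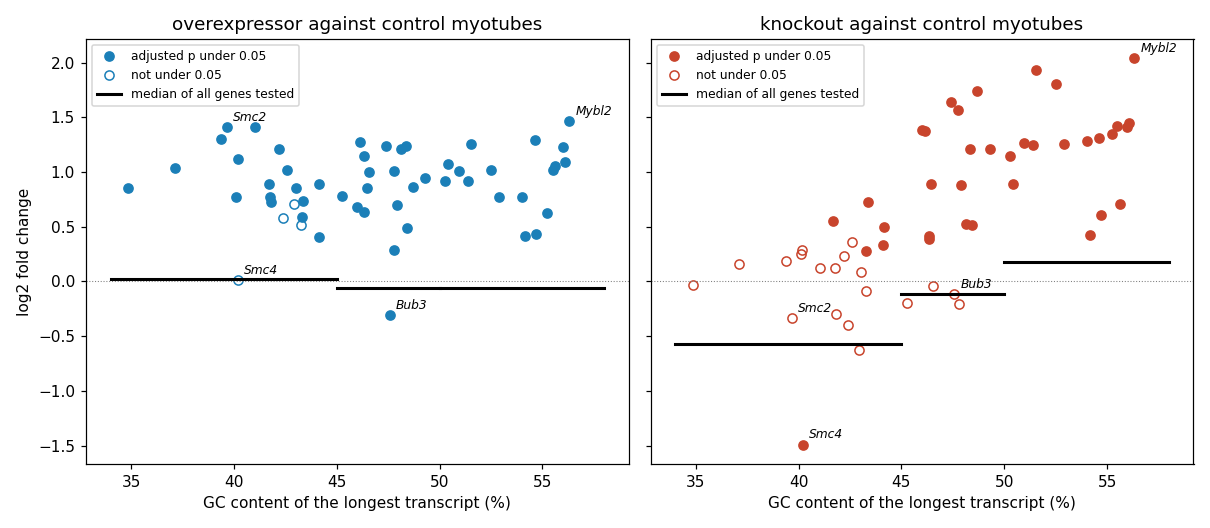
Log2 fold change of each of the 55 genes against control myotubes (vertical axis) by the GC content of its longest transcript (horizontal axis, %), for the overexpressor (left) and the knockout (right). Filled points passed an adjusted p of 0.05, and black lines mark the median of all genes tested in each GC range, which lies at -0.57, -0.12 and 0.18 on the right.

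A fit with an offset for GC content and length in each library, chosen after the data were seen, gave 47 members higher and 1 lower in knockout against control myotubes (37.8% and 31.3% of all genes). Its median was 1.03, and 16 of the 21 members under 45% GC were higher and 1, Smc4, lower (-0.75, adjusted p = 0.00439). Anln (0.30, adjusted p = 0.0159) and Cenpf (0.68, adjusted p = 0.00691), which had negative values without the offset, were called higher with it. Kif11 (0.93, adjusted p = 0.000174), Bub1 (0.78, adjusted p = 0.00173) and Ncapg (0.97, adjusted p = 1.3e-07), the last also negative before, passed in that fit too. Tpx2 (-0.03, adjusted p = 0.788), Cenpe (0.03, adjusted p = 0.919), Ndc80 (0.25, adjusted p = 0.213), Mki67 (0.37, adjusted p = 0.145), Smc2 (0.44, adjusted p = 0.14), Nusap1 (0.30, adjusted p = 0.123) and Bub3 (0.16, adjusted p = 0.151) did not. In the overexpressor the same fit called 53 members higher and 0 lower (34% and 29.3% of all genes), with a median of 1.01. Between the mutants it called 14 higher in the overexpressor and 17 higher in the knockout (27.8% and 30.5%).

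In myoblasts few members differed between the overexpressor and the control. Of the 55, 3 were higher and 3 lower, with 20.7% and 19.7% of all genes called, and the median was 0.04 against 0.02 for all genes. Cdc25b was at 128, 131 and 134 CPM in control and 318, 279 and 320 in overexpressor myoblasts, without overlap and 1.22 higher on the log2 scale (SE 0.07, adjusted p = 1.69e-10). Spc24 was lower, at 75.3, 77.7 and 77.8 CPM in the control and 41.6, 39.1 and 41.9 in the overexpressor (-0.91, SE 0.12, adjusted p = 4.67e-06). Ube2c (0.54, SE 0.10, adjusted p = 0.000337) and Prc1 (0.40, SE 0.10, adjusted p = 0.00479) were the other members that were higher. Espl1 (-0.39, SE 0.10, adjusted p = 0.00373) and Mybl2 (-0.34, SE 0.11, adjusted p = 0.0194) were lower too, whereas Cenpe (0.78, SE 0.33, adjusted p = 0.0732) and Cenpf (0.77, SE 0.31, adjusted p = 0.0616) had larger positive values than Ube2c and did not pass.

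Knockout myoblasts held less of the program. Of the 55 genes 28 were lower, with 26.6% of all genes called lower. None was higher, with 26.4% of all genes called higher, and 0 were higher at an unadjusted p under 0.05 in edgeR or in DESeq2's Wald test after adjustment. For the 55 the median was -0.40, against 0.02 for all genes. By rising GC range the members' medians were -0.31, -0.40 and -0.47, against 0.11, 0.07 and -0.06 for all genes. With the GC and length offset the members' medians were -0.37, -0.50 and -0.38, and more members were called lower in each range. In 45 genes every knockout library lay below every control library, which held for 34.2% of all genes. Bub1b, a checkpoint kinase, was at 167, 168 and 179 CPM in control and 81.8, 82.0 and 86.8 in knockout myoblasts (-1.03, SE 0.10, adjusted p = 1.19e-07). Kif20a was at 267, 271 and 289 against 136, 130 and 142 CPM (-1.02, SE 0.11, adjusted p = 2.34e-07), and Espl1 at 125, 117 and 126 against 66.7, 61.6 and 66.9 CPM (-0.91, SE 0.10, adjusted p = 3.48e-07). In these 3 genes the groups did not overlap. Cdk1 overlapped between the groups, at 173, 178 and 180 CPM in control and 189, 170 and 194 in knockout myoblasts (0.06, SE 0.10, adjusted p = 0.642), and Cenpa did not pass (0.09, SE 0.09, adjusted p = 0.41). Top2a, whose knockout libraries lay just below the control, did not pass either (-0.11, SE 0.18, adjusted p = 0.64), but did with only the groups compared (-0.12, adjusted p = 0.0177). The knockout myoblasts also held the high sum of muscle differentiation markers given above, and its part in the lower mitotic levels was not tested. Directly compared, 33 genes were higher in overexpressor than in knockout myoblasts and 1, Spc24, was lower (-0.36, SE 0.12, adjusted p = 0.0139), with 25.7% and 26.9% of all genes called.

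The difference between the differentiation responses of the lines was tested as an interaction. The fall was smaller in the overexpressor than in the control for 37 of the 55 genes and larger for 2, with 16.6% and 22.3% of all genes called, and the median difference was 0.83 against -0.05 for all genes. Its Spearman correlation with GC content was 0.25 over the 55 genes, against 0.01 over all genes. By rising GC range the members' medians were 0.70, 0.83 and 1.03, against -0.05, -0.06 and -0.05 for all genes. With the GC and length offset the members' medians were 0.88, 0.95 and 1.08. Mybl2, which fell by 4.22 on the log2 scale in the control and by 2.41 in the overexpressor, had the largest difference (1.81, SE 0.17, adjusted p = 1.5e-07), followed by Spc24 (1.68, SE 0.17, adjusted p = 3.33e-07) and Espl1 (1.48, SE 0.15, adjusted p = 2.15e-07). All 3 were also lower in overexpressor myoblasts. Cdc25b fell further in the overexpressor (-2.40) than in the control (-1.60), from its higher myoblast level (difference -0.81, SE 0.10, adjusted p = 4.49e-06), and so did Bub3 (-0.39, SE 0.10, adjusted p = 0.00576). The call for Bub3 was lost with DESeq2 size factors (-0.28, adjusted p = 0.0871), with library totals (-0.20, adjusted p = 0.111), in DESeq2's Wald test (-0.28, adjusted p = 0.1), with the GC and length offset (-0.25, adjusted p = 0.167) and without overexpressor myotube C (-0.20, adjusted p = 0.131).

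In the knockout the fall was smaller than in the control for 38 genes and larger for 1, with 20.2% and 29.9% of all genes called, and the median difference was 1.07 against -0.12. These differences followed GC content, with a Spearman correlation of 0.78 over the 55 genes against 0.38 over all genes. The median difference was 0.54 for the 21 members under 45% GC, 1.24 for the 17 at 45 to 50% and 1.78 for the 17 over 50%. Medians of all genes in these ranges were -0.73, -0.22 and 0.17. With the GC and length offset the members' medians were 1.27, 1.56 and 1.71. Mybl2 (2.51, SE 0.17, adjusted p = 1.88e-09), Espl1 (2.36, SE 0.15, adjusted p = 4.69e-10) and Cdca5 (2.18, SE 0.20, adjusted p = 8.65e-08) led. Smc4 was the exception (-1.45, SE 0.51, adjusted p = 0.0287), falling by 3.02 in the knockout and by 1.56 in the control. That call was lost with no filter (-1.46, adjusted p = 0.0736), with the GC and length offset (-0.61, adjusted p = 0.0811) and without control myoblast B or C, knockout myoblast A, control myotube C, or knockout myotube B or C (adjusted p 0.0524 to 0.0821). Set against each other, 29 genes fell further in the overexpressor than in the knockout with 22.4% of all genes called in that direction. By rising GC range the members' medians were 0.23, -0.37 and -0.69, where the medians of all genes were 0.68, 0.14 and -0.26. With the offset the members' medians were -0.51, -0.60 and -0.64. In edgeR's test 0 fell further in the knockout, with 24.3% of all genes called, against 1 at an unadjusted p under 0.05 and 0 in DESeq2's Wald test. Cdc25b (-1.89, SE 0.10, adjusted p = 1.57e-10), Pttg1 (-1.17, SE 0.19, adjusted p = 0.000124) and Kif18b (-1.13, SE 0.17, adjusted p = 3.28e-05) had the largest such differences.

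Levels between genes are comparable only per length, as RPKM over the exons of each gene. In control myoblasts Cdc20 (116.7), Ccnb2 (93.57) and Plk1 (73.14) were the highest of the 55 and Cenpk (1.01), an inner kinetochore subunit, the lowest. In control myotubes the order changed, with Bub3 (14.6), Cdc25b (11.6) and Cdc20 (7.41) at the top and Mybl2, at 0.35, among the 3 lowest. In overexpressor myotubes Cdc25b (15.5), Cdc20 (15.3) and Ube2c (12.9) led, and in the knockout Ube2c (17.03), Cdc25b (15.6) and Ccnb2 (14.2).

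Other lists place the members among related genes. Beside each myotube count that follows stand the shares of all genes given above, 26.2% higher and 30.9% lower in the overexpressor against the control and 31% and 37% in the knockout. Of 64 further mitosis genes, 60 fell on differentiation of the control, 61 on that of the overexpressor and 63 on that of the knockout, against 28.8%, 33% and 35.6% of all genes. In myotubes 46 of them were higher and 3 lower in the overexpressor than in the control, with a median of 0.74, and 35 were higher and 10 lower in the knockout, with a median of 0.52. Melk (1.90, adjusted p = 5.1e-09) and Fam83d (1.67, adjusted p = 1.72e-09) led in the overexpressor, and Nsl1, a kinetochore subunit (1.97, adjusted p = 1.2e-10), in the knockout. Cit, the citron kinase, was the lowest in both (-1.58, adjusted p = 1.86e-11, and -2.55, adjusted p = 5.39e-14). The 15 genes for core subunits and an activator of the anaphase-promoting complex were mixed. In the control 3 rose and 7 fell on differentiation, with a median of -0.17, and in myotubes 3 (20%) were higher and 6 (40%) lower in the overexpressor and 6 (40%) higher and 6 (40%) lower in the knockout. Fzr1, the activator that replaces Cdc20 in late mitosis and G1, was the highest in both (0.69, adjusted p = 4.53e-06, and 1.22, adjusted p = 2.49e-09).

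Of 11 DREAM and MuvB subunits, 3 were higher and 3 lower (27.3% each) in overexpressor than in control myotubes, and 4 higher and 4 lower (36.4% each) in the knockout, shares near those of all genes in each comparison. Rbl2, the p130 pocket protein that DREAM uses in resting cells, was the lowest in both (-0.96, adjusted p = 3.79e-08, and -1.03, adjusted p = 1.3e-08), and E2f4, its usual E2F partner, was among the 2 highest in both (0.57, adjusted p = 1.67e-06, and 0.65, adjusted p = 2.7e-07). Among 41 DNA replication genes all fell on differentiation in each line. In myotubes 31 were higher and 1 lower in the overexpressor than in the control (median 0.54), and 32 were higher and 5 lower in the knockout (median 0.98), to be read against the same shares of all genes. Cdc6, which loads the replicative helicase, and Uhrf1, which maintains DNA methylation, stood highest, at 1.80 and 2.20 in the overexpressor and 2.60 and 2.56 in the knockout. Orc6 stood lowest in both, at -1.60 and -1.84.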

How the data were processed

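Polyadenylated RNA of 18 C2C12 cultures was sequenced in triplicate per line and stage. The authors deposited whole-number counts per gene, made with STAR 2.7.9a and featureCounts of Subread 2.0.3 on mm10, per the submitters' processing notes. The annotation release and strand setting are not given in the sources used here, so antisense or overlapping reads could not be told apart. A deposited variance-stabilised table was not used. Counts were filtered (filterByExpr), TMM-normalised and fitted over all 6 groups in 1 model with edgeR 4.0.16 (R 4.3.3), with 12 residual degrees of freedom. Adjusted p-values are Benjamini-Hochberg over 17912 genes, at 0.05. RPKM used exon lengths of GENCODE vM21. Library totals of 41544358 to 79140702 counts set the counting precision.

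The 55 members, the related lists and the marker lists were chosen with earlier results of these data known. Described library by library were 23 genes that lead their roles. Also named were the 3 highest and 3 lowest in a comparison, members against the common direction, and up to 10 that did not pass where most did. Cdc25b, Spc24, Espl1, Bub1b, Smc2, Smc4, Cdca5 and single genes of other fits were added for the size of their values. Overexpressor against knockout myoblasts and the difference between their responses are given mainly as counts. Alternatives were DESeq2 size factors, library totals, no filter, a replicate block, only the groups compared, DESeq2 1.42.0, leaving out each library and, chosen after seeing the data, a GC and length offset. The count model was tested on simulated data.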

Additional observations from a re-analysis of the deposited data

Results flagged for a closer look

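The responses of the lines to differentiation differed when the difference itself was tested with edgeR's quasi-likelihood test. Against the control, the overexpressor fell less in 37 of the 55 genes (16.6% of all genes) and more in 2 (22.3%). The knockout fell less than the control in 38 (20.2% of all genes) and more in 1 (29.9%), and 29 genes fell further in the overexpressor than in the knockout (22.4%). Both differences that involve the knockout followed the GC content of the transcripts, with Spearman correlations of 0.78 and -0.77 over the 55 genes. For overexpressor minus control the correlation was 0.25. Single genes singled out by the same test were Mybl2 (1.81), Spc24 (1.68), Espl1 (1.48), Bub3 (-0.39) and Cdc25b (-0.81) in the overexpressor minus control difference on the log2 scale. In the knockout minus control difference they were Mybl2 (2.51), Espl1 (2.36), Cdca5 (2.18) and Smc4 (-1.45). The call for Smc4 was lost with no filter, with the GC and length offset (-0.61, adjusted p = 0.0811) and without any 1 of 6 libraries, and that for Bub3 with DESeq2 size factors, library totals, DESeq2's Wald test, the offset and without overexpressor myotube C (-0.20, adjusted p = 0.131).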

How the results depend on the processing

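Counts of members called in each comparison kept within 1.5 times of the reported ones under the alternatives, apart from those given here, and the cause was not tested. These counts stand without the shares of all genes called under each alternative. In overexpressor against control myoblasts 9 members were higher with the GC and length offset, 3 to 6 when 1 library was left out (6 without overexpressor myoblast A or overexpressor myotube C), and 5 were lower with only the groups compared. Knockout against control myoblasts had 45 lower with only the groups compared. In overexpressor against control myotubes, 0 were lower with DESeq2 size factors, library totals, only the groups compared, DESeq2's Wald test and the offset, and 0 to 1 on leaving out a library (0 without overexpressor myotube C). In knockout against control myotubes 1 to 3 were lower on leaving out a library (3 without control myotube A, 2 without knockout myotube A). Between mutant myotubes 14 were higher in the overexpressor with the offset, and 15 to 25 on leaving out a library (15 without knockout myotube C). For the response of overexpressor minus control, 1 was lower with DESeq2 size factors, library totals, DESeq2's Wald test and the offset, and 1 to 2 on leaving out a library (1 without overexpressor myotube C). For knockout minus control, 0 were lower with no filter and with the offset, and 0 to 1 on leaving out a library (0 without control myoblast B or C, knockout myoblast A, control myotube C, or knockout myotube B or C). For overexpressor minus knockout, 0 to 4 were higher on leaving out a library (3 without overexpressor myoblast B, 4 without overexpressor myotube A, 1 without overexpressor myotube B, 3 without knockout myotube A).

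Library totals moved the median of all genes by over 0.1, to 0.11 in overexpressor against control myotubes, 0.12 between mutant myotubes, -0.17 and -0.24 for differentiation of the control and the knockout, and 0.14 and 0.17 for the response of the overexpressor minus control and minus knockout. The replicate block called 50 higher and 1 lower in overexpressor against control myotubes, 22 higher and 15 lower between mutant myotubes, and moved no count by over 1.5 times. The letters do not pair the libraries: 16 of 45 same-letter pairs correlated above 0.1, and 1 of 18 libraries lay closest to its own letter.

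Single genes that changed sign had not passed the reported test, and 3 of them, Cenpf, Anln and Ncapg in knockout against control myotubes, turned from negative to called higher with the offset (adjusted p = 0.00691, 0.0159 and 1.3e-07). In knockout against control myotubes Bub3 gave 0.020 with DESeq2 size factors, 0.018 with DESeq2's Wald test and 0.16 with the offset, Cenpf 0.040, 0.037 and 0.68, Mki67 0.086, 0.083 and 0.37, and Ncapg 0.093, 0.085 and 0.97. Mki67 gave 0.010 with library totals and 0.016 with only the groups compared, Ncapg 0.018 and 0.022, and with the offset Anln gave 0.30, Cenpe 0.031, Ndc80 0.25 and Smc2 0.44. On leaving out a library Bub1 ranged from -0.17 to 0.38, Cenpf from -0.39 to 0.14, Cenpk from -0.076 to 0.56, Hmmr from -0.061 to 0.28, Kif20b from -0.12 to 0.45, Mki67 from -0.32 to 0.24, Ncapg from -0.32 to 0.16 and Ttk from -0.049 to 0.23. In overexpressor against control myotubes Smc4 gave -0.0064 with the replicate block and -0.44 to 0.27 on leaving out a library. In knockout against control myoblasts Kif20b gave -0.018 with DESeq2 size factors and DESeq2's Wald test, -0.024 with library totals, -0.0070 with only the groups compared, -0.099 with the offset and -0.18 to 0.24 on leaving out a library, where Cenpf ranged from -0.24 to 0.098, Hmmr from -0.096 to 0.079 and Smc4 from -0.18 to 0.16.

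For the knockout minus control response Bub3 gave 0.11 with DESeq2 size factors and DESeq2's Wald test, 0.031 with library totals, 0.056 with only the groups compared, 0.22 with the offset and -0.097 to 0.048 on leaving out a library. Smc2 gave 0.078, 0.074, 0.010, 0.022, 0.81 and -0.46 to 0.24 for size factors, Wald test, totals, groups compared, offset and left-out libraries, and Cenpe gave 0.28 with the offset. On leaving out a library Cenpf ranged from -0.27 to 0.26, Hmmr from -0.031 to 0.31, Kif20b from -0.13 to 0.45, Ncapg from -0.0086 to 0.48 and Ndc80 from -0.12 to 0.36. For the overexpressor minus control response Cenpe gave 0.026 with DESeq2 size factors, 0.027 with DESeq2's Wald test, 0.11 with library totals and -0.46 to 0.23 on leaving out a library, where Cenpf ranged from -0.58 to 0.024 and Smc4 from -0.74 to 0.017. Of the values of single genes recomputed under an alternative, 3394 kept direction and call, 60 lost the call, 48 gained it and 98 changed sign. Bub3 lost its call in overexpressor against control myotubes under each scaling that removed the lower count above.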
